A study of Rattus norvegicus with 24 samples.

Results

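The genes of heterotrimeric G protein subunits and of the regulators of G protein signaling (RGS) were followed in RNA of the rat nucleus accumbens (NAc). Members were the protein-coding genes whose symbols name a G alpha, G beta (Gnb1 to Gnb5) or G gamma subunit or a numbered RGS protein. This rule found 53 of the 32545 genes listed, 22293 of which are protein coding, under 51 distinct symbols, because Gnas and Gng5 are each listed under more than 1 identifier. There were 17 G alpha, 5 G beta, 11 G gamma and 20 RGS genes.

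A G protein couples a receptor in the membrane to enzymes and channels inside the cell. An activated receptor makes the alpha subunit exchange GDP for GTP, and the alpha subunit and the beta-gamma pair then act on separate effectors. Gs and Golf stimulate adenylyl cyclase, Gi and Go mediate inhibition by opioid and other receptors, Gq and G11 activate phospholipase C, and RGS proteins end the signal by speeding GTP hydrolysis. In striatal medium spiny neurons, dopamine D1 receptors and adenosine receptors signal through Golf (Gnal) with the gamma subunit Gng7, and Rgs9 is the RGS protein best known from these cells.

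All animals were adult male Sprague Dawley rats, 8 weeks old on arrival, and each of the 6 groups held 4 libraries, 24 in all. In the injection experiment, rats received 5 intraperitoneal injections of 250 µg/kg LPS, a bacterial immune stimulant, or of saline, and later 5 daily injections of heroin rising from 1 to 5 mg/kg or of saline. By the first and second agent these groups are called Saline-Saline, Saline-Heroin, LPS-Saline and LPS-Heroin. In the self-administration (SA) experiment, rats with a jugular catheter took heroin at 0.075 mg/kg per infusion (Heroin-SA) or saline (Saline-SA) for 6 hours on each of 10 days. These SA rats were housed singly on a reversed light cycle and were killed straight after the last session, whereas the injected rats were killed after a delay, so route of heroin and experiment cannot be told apart.

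Each library held 12312878 to 18850240 reads assigned to genes, with 6.82% to 9.10% on mitochondrial genes in the injection libraries and 10.0% to 15.9% in the SA libraries. Libraries of a group correlated at 0.939 to 0.962 across genes, which are not independent replicates, on the log2 scale. Markers of medium spiny neurons (Drd1, Drd2, Ppp1r1b and others) were abundant throughout, with summed levels of 1195 to 3149 FPKM, where FPKM is a read count divided by gene length and library depth. Markers of neighbouring tissue varied between libraries. The choroid plexus list was summed at 333 FPKM in Saline-Saline 1, and cortical glutamatergic markers ran from 51.9 to 446 FPKM. Whether dissection differed was not tested. In tissue RNA, fewer cells of a type and less RNA per cell cannot be told apart.

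The members' levels spanned from among the most abundant transcripts to no reads. Over the 24 libraries 47 of the 53 members had a mean of at least 0.5 FPKM, 37 of at least 10 and 10 of at least 100. The 6 below were Gnat1, Gnat2 and Gnat3 (transducins and gustducin of sensory cells), Gng11, Rgs13 and Rgs21. Rgs21 had 0 reads in each library.

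**Figure D1:**
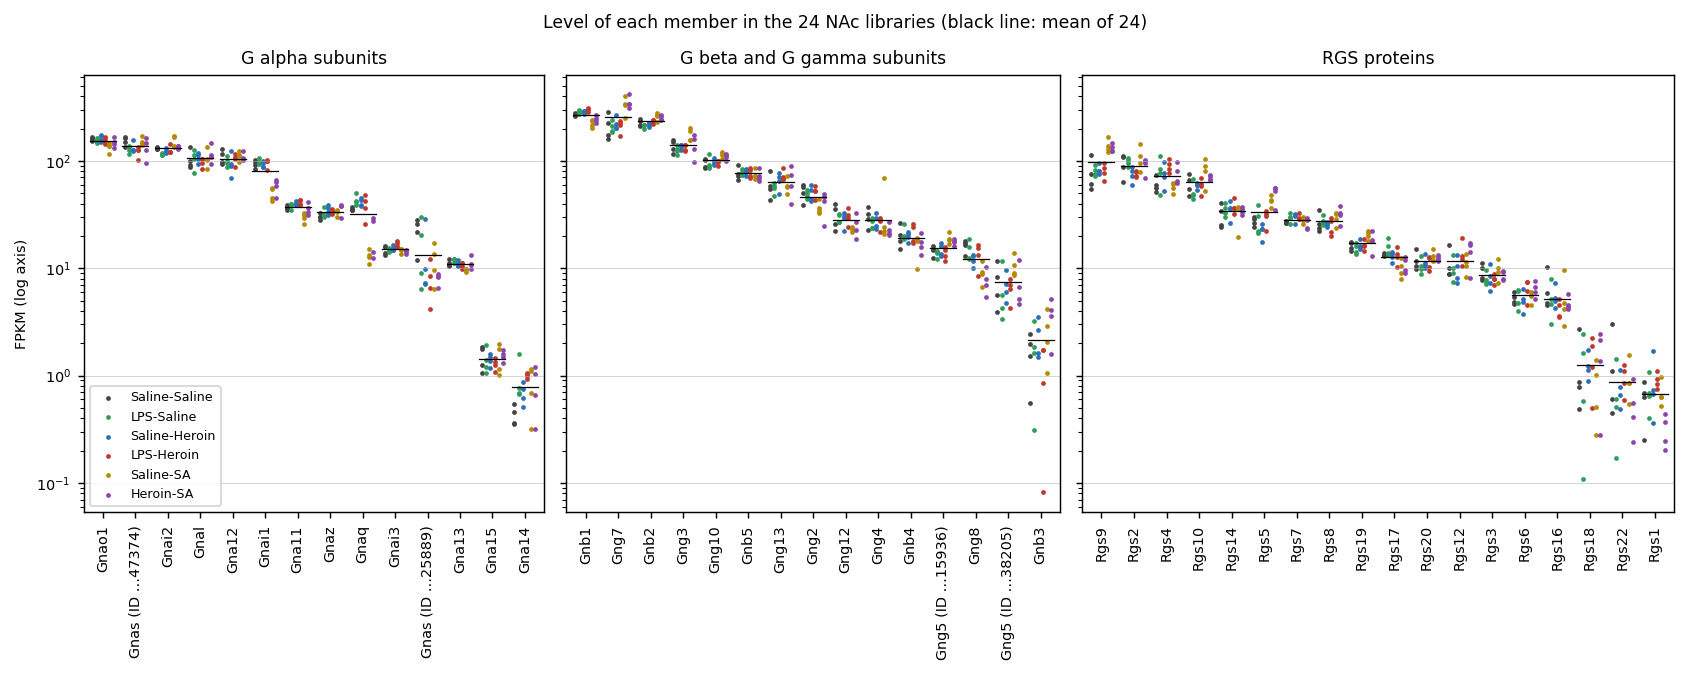
FPKM (log axis) of the 47 members with a mean of at least 0.5 FPKM, 1 point per library colored by group, with a black line at the mean of 24 libraries. Gnb1 has the highest 24-library mean at 269 FPKM, and for Gnai1 and Rgs9 the SA points lie apart from the injection points.

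Gnb1, Gnb2 and Gng7 were the most abundant members in both experiments, in a different order. In the 16 injection libraries Gnb1 averaged 286 ± 14.9 FPKM (SD), Gnb2 222 ± 12.5 and Gng7 214 ± 34.4. In the 8 SA libraries Gng7 averaged 340 ± 51.3 FPKM, Gnb2 257 ± 17.0 and Gnb1 235 ± 20.9. The values that follow are means over all 24 libraries and pool the experiments. Gnao1, the main neuronal Go subunit, came next at 153 ± 13.5 FPKM. Then came Gng3 at 141 ± 24.2, the more abundant Gnas entry (ENSRNOG00000047374) at 137 ± 19.1, Gnai2 at 130 ± 14.4, Gnal at 106 ± 17.3, Gna12 at 104 (69.9 to 129 over the libraries) and Gng10 at 102 ± 11.1. Among neighbours in the order of the members at 10 FPKM or more, 31 of 36 pairs differed by less than the larger of their SDs, so this order is mostly not resolved. The step from Gnb2 down to Gnao1 and that from Gnai2 to Gnal exceeded it.

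Within the families the load was uneven. Gnb1 made up 47.0% ± 1.56 of the summed G beta FPKM in the 16 injection libraries and Gnb2 36.6% ± 1.38. In the 8 SA libraries the shares were 40.1% ± 2.63 and 43.9% ± 2.37. Gng7 supplied 32.8% ± 3.75 of the G gamma sum in the injection libraries and 42.5% ± 6.33 in the SA libraries. Gnao1 supplied 18.2% ± 1.03 of the G alpha sum in the injection libraries. Of the RGS sum, Rgs2 supplied 17.4% ± 2.59 and Rgs9 16.3% ± 2.15 in the injection libraries, and 16.8% ± 2.41 and 22.9% ± 1.62 in the SA libraries.

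Among RGS genes of the injection libraries, Rgs2 averaged 85.4 ± 15.8 FPKM, Rgs9 80.0 ± 14.5, Rgs4 75.9 ± 19.3 and Rgs10 57.8 ± 9.19 (SD, n = 16), neighbours among the first 3 lying within their SDs. In the SA libraries Rgs9 averaged 135 ± 15.2 FPKM, Rgs2 99.8 ± 22.5, Rgs10 75.5 ± 15.3 and Rgs4 66.6 ± 15.4 (SD, n = 8). Rgs2 acts mainly on Gq, Rgs4 on Gi and Gq, and Rgs10 on Gi. The coefficient of variation over the 16 injection libraries, for members at 10 FPKM or more, ran from 5.22% for Gnb1 to 62.4%, with a median of 14.6%.

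Promoter sequence is shown for 4 of the members with a call that held in each fit leaving out 1 library. These were Rgs4 in LPS-Heroin and Rgs9, Gnai1 and Gnaq between the control groups (all described further on). Calls of Rgs5, Gng7, Gng8 and Gng2 between the control groups held likewise. So did those of Gna14 and the less abundant Gnas entry in LPS-Heroin against Saline-Saline. RefSeq promoters of the GRCr8 build were matched for 42 of the 51 symbols. The stretches below are the 150 bases before the start site, 5′ to 3′ on the gene's strand, and capitals mark matches on either strand to 4 motifs. These were CCAAT, read by factors such as NF-Y, then the TATA box as TATAAA, then the cAMP response element in part as TGACG, and last the GC box as GGGCGG.

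Rgs4 (chr13:84475885-84476034, minus strand): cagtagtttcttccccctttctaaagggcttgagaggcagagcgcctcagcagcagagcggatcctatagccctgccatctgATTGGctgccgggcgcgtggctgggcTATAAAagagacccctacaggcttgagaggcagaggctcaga
Rgs9 (chr10:94770388-94770537, minus strand): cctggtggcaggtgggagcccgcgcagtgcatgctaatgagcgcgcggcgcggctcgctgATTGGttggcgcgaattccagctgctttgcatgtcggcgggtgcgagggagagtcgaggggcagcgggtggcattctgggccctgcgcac
Gnai1 (chr4:17705911-17706060, plus strand): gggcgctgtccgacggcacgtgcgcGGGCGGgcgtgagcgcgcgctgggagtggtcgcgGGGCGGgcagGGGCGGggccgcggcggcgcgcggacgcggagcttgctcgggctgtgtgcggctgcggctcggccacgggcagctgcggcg
Gnaq (chr1:222852303-222852452, plus strand): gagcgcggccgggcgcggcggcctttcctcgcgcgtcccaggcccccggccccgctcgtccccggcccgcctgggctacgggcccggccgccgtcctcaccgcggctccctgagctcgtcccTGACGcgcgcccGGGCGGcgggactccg

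In 250 upstream bases, GGGCGG was present in 23 of the 42 members (54.8%) and in 30.5% of all 33469 promoters, TGACG in 10 (23.8%) against 18.2%, CCAAT in 8 (19.0%) against 34.0%, and TATAAA in 5 (11.9%) against 12.9%. The stretch of Rgs4 held a CCAAT and a TATAAA match, that of Rgs9 a CCAAT match, that of Gnai1 3 GGGCGG matches and that of Gnaq TGACG and GGGCGG. Members were counted by symbol, and Gnas had several promoters, whereas the share over all counted single promoters. The shares are therefore not like for like. All matches describe letters and not bound sites.

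The first question was what a past immune challenge left behind. A member or gene was called when limma's unadjusted p was at most 0.05 and the change was at least 1.30-fold. In LPS-Saline against Saline-Saline, 1 of 47 members tested was called, beside 2.37% of all genes tested. The called member was Gna14, a Gq-class alpha subunit of low level. It was read at 0.455, 0.362, 0.356 and 0.549 FPKM in Saline-Saline and at 0.770, 1.59, 0.679 and 0.691 in LPS-Saline. The groups did not overlap, and LPS-Saline 2 stood far above the others. The Saline-Saline mean of 0.430 lay under the 0.5 FPKM that a gene had to average over a comparison's libraries to be tested, so Gna14 was tested through the groups where it was higher. The log2 fold change was 0.90 (SE 0.37, limma adjusted p = 0.736), from 14 to 63 reads per library. A 7SK RNA gene lies opposite Gna14. The call was lost without LPS-Saline 2, without Saline-Saline 1, 2 or 3 and without LPS-Saline 1.

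Gnai2, an inhibitory alpha subunit, was at 115 ± 2.38 FPKM in LPS-Saline and 130 ± 2.41 in Saline-Saline (SD, n = 4), with no overlap (exact two-sided permutation p = 0.0286, the smallest this design allows). Its ratio of 0.885 lies inside the fold limit, so it was not called (limma adjusted p = 0.661). Gnai2 is not among the members named by rule and was given after its values were seen. Its permutation p does not allow for that choice. The median log2 fold change of the members was -0.03, beside 0.01 over all genes. Adjusted p reached 0.661 at the lowest among members. The choroid plexus list was lower in LPS-Saline (-1.18 against 0.70 on the log2 scale, no overlap), and its part in these differences was not tested.

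Repeated heroin without LPS gave 1 called member of 47 in Saline-Heroin against Saline-Saline, beside 3.07% of all genes. Gng8, a gamma subunit known from olfactory and habenular neurons, was at 18.0, 16.5, 13.1 and 17.2 FPKM in Saline-Saline and 10.1, 11.7, 13.4 and 12.9 in Saline-Heroin. The groups touched at 1 library. Gng8 fell by 0.42 on the log2 scale (SE 0.12, limma adjusted p = 0.750), and was not called when all groups shared 1 fit or without Saline-Saline 1 or Saline-Heroin 1. Rgs5, a pericyte gene, had a log2 fold change of -0.31 and Gnaq one of 0.21, neither of them called. The immediate early gene list was at 4.16 in Saline-Heroin and 4.89 in Saline-Saline on the log2 scale (exact permutation p = 0.0857), and whether it bears on the members was not tested.

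With both exposures more of all genes were called than with either alone, and the members' share lay close to theirs. In LPS-Heroin against Saline-Saline, 3 of 47 members were called (6.38%), beside 5.43% of all genes. Rgs4 and Gna14 rose and the less abundant Gnas entry (ENSRNOG00000025889) fell. The median log2 fold change was 0.02 for the members and 0.00 for all genes, rounded.

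Rgs4 was at 56.3, 59.0, 50.9 and 73.6 FPKM in Saline-Saline and at 93.1, 84.7, 103 and 76.5 in LPS-Heroin. Every LPS-Heroin library lay above every Saline-Saline library. The means were 89.5 ± 11.5 and 59.9 ± 9.71 (SD, n = 4), a ratio of 1.49 (exact two-sided permutation p = 0.0286). The log2 fold change was 0.58 (SE 0.13, limma adjusted p = 0.186), and it stayed between 0.51 and 0.68 and called in all 8 fits that left out 1 library. The groups given 1 treatment spread widely, from 48.1 to 111 FPKM in LPS-Saline and from 52.1 to 97.5 in Saline-Heroin.

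Gna14 was at 0.931, 1.05, 0.988 and 1.02 FPKM in LPS-Heroin, above the Saline-Saline libraries given before. The difference of 1.06 on the log2 scale (SE 0.28, limma adjusted p = 0.229) rested on 14 to 54 reads per library and held its call in all 8 such fits. Here Gna14 was tested through LPS-Heroin, since its Saline-Saline mean lay under the 0.5 FPKM minimum. Those fits therefore lend the call no independent weight. The less abundant Gnas entry was at 25.6, 21.7, 28.2 and 11.9 FPKM in Saline-Saline and 6.54, 4.12, 12.2 and 8.42 in LPS-Heroin. Saline-Saline 4 lay within the LPS-Heroin range. Its log2 fold change was -1.50 (SE 0.35, limma adjusted p = 0.199). This entry (rn6, chromosome 3, 172374957 to 172428483) overlaps the other Gnas entry (172385672 to 172434613) on the same strand, so the split of reads between them is uncertain. The more abundant entry was at 122 ± 13.4 FPKM in LPS-Heroin and 153 ± 13.7 in Saline-Saline with no overlap (SD, n = 4, exact permutation p = 0.0286), but its log2 fold change of -0.34 was inside the limit.

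Markers of cortical glutamatergic neurons were higher in LPS-Heroin than in Saline-Saline. The list, 7 of its 8 genes being in the table, was at 3.70 in LPS-Heroin and 2.77 in Saline-Saline on the log2 scale with no overlap (exact two-sided permutation p = 0.0286), its summed level being 352 to 446 FPKM against 95.2 to 278. Over the 16 injection libraries, Rgs4 correlated with this list at r = 0.70 (permutation p = 0.0027, adjusted p = 0.0171) and rho = 0.57 (p = 0.0248, adjusted p = 0.106). Leaving out the 2 libraries farthest from the median gave r = 0.49, and removing the group means gave r = 0.60. Gna14 had r = 0.67 and rho = 0.84, and the less abundant Gnas entry r = -0.78 and rho = -0.74. Both were set against the lists because they were called in comparisons of these libraries. The septal list described further on was at 1.75 in LPS-Heroin and 2.56 in Saline-Saline with overlap (exact permutation p = 0.114). With it Rgs4 had r = -0.56 and rho = -0.64 (permutation adjusted p = 0.0908 and 0.0440). The less abundant Gnas entry had r = 0.61 and rho = 0.65 (adjusted p = 0.0505 and 0.0418). Gna14 had r = -0.34 and rho = -0.37 (adjusted p = 0.384 and 0.452). The part of either tissue in the 3 calls was not tested.

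**Figure D2:**
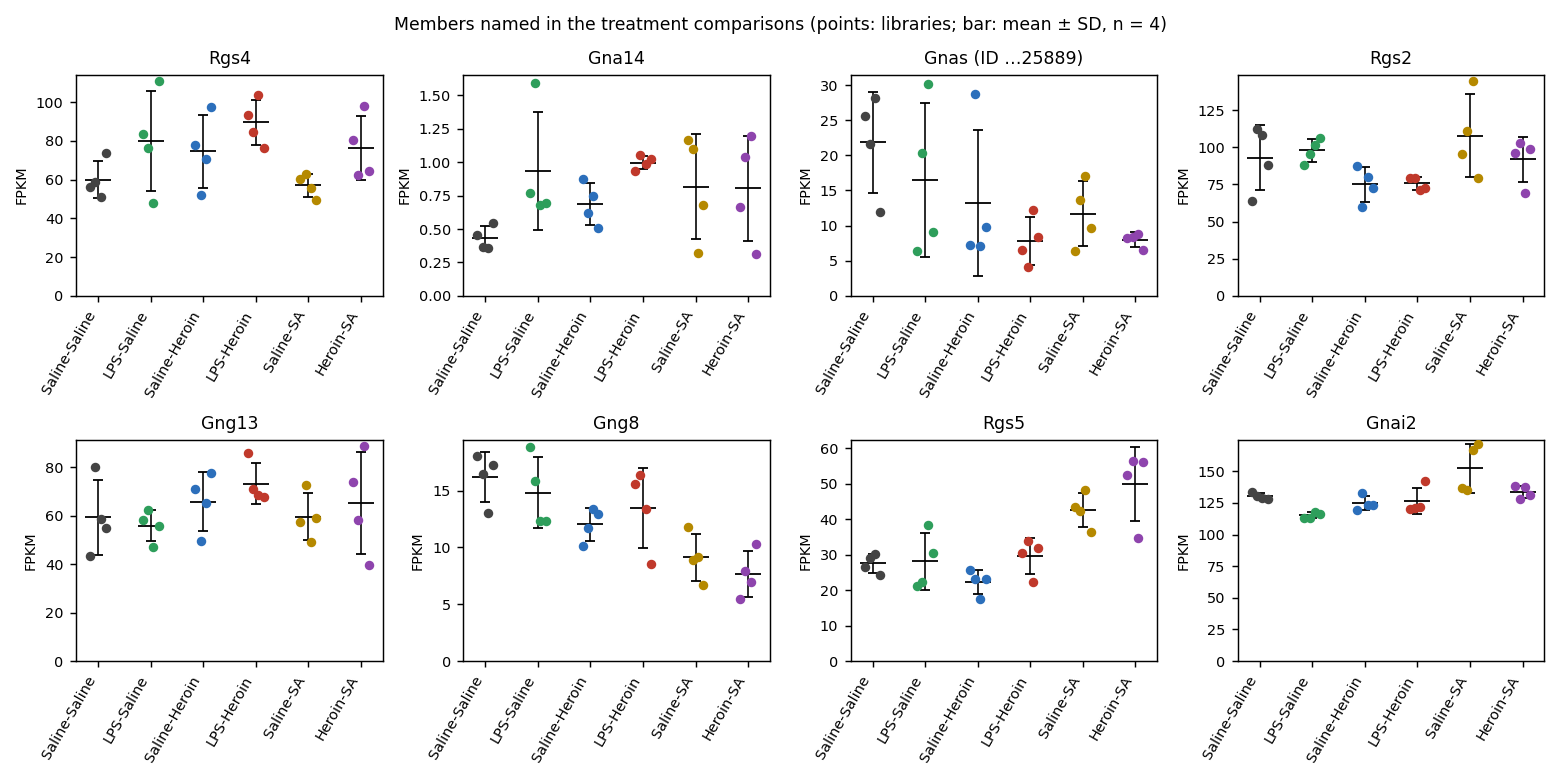
FPKM of 8 members in the 6 groups, 1 point per library, with mean ± SD (n = 4). Rgs4 in LPS-Heroin lies wholly above Saline-Saline, Gna14 has its lowest injection group mean in Saline-Saline, and Gnai2 is tight at 115 ± 2.38 in LPS-Saline.

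Heroin in rats with an LPS history gave 1 called member of 47 in LPS-Heroin against LPS-Saline, beside 2.29% of all genes. Gng13, a gamma subunit, was at 58.3, 62.4, 47.0 and 55.8 FPKM in LPS-Saline and 85.6, 70.9, 68.4 and 67.5 in LPS-Heroin. The groups did not overlap. Gng13 rose by 0.39 on the log2 scale (SE 0.11, limma adjusted p = 0.977), close to the fold limit, and lost its call under limma-voom, in 1 fit of all groups and without LPS-Saline 3 or LPS-Heroin 1. Over the 16 injection libraries Gng13 correlated with the cortical list (r = 0.65, rho = 0.54, permutation adjusted p = 0.0324 and 0.125) and inversely with the septal list described further on (r = -0.74, rho = -0.70, adjusted p = 0.0070 and 0.0242). Gng13 was set against the lists because it was called in these libraries. The cortical list was at 3.70 in LPS-Heroin and 3.12 in LPS-Saline (exact permutation p = 0.114) and the septal list at 1.75 and 1.92 (exact permutation p = 0.514), both with overlap, and their part in this call was not tested. Gng13 overlaps Chtf18 on the opposite strand, and whether the counting used strand is not given in the sources used here.

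Rgs2, whose transcript follows neuronal activity, was at 88.3, 95.4, 102 and 106 FPKM in LPS-Saline and 79.6, 79.5, 71.2 and 72.6 in LPS-Heroin. LPS-Heroin lay wholly below LPS-Saline, at a ratio of 0.773 (exact two-sided permutation p = 0.0286). Its log2 fold change was -0.37 (SE 0.07, limma unadjusted p = 0.00064, adjusted p = 0.977), just inside the fold limit, so it was not called. In Saline-Saline it spread from 64.0 to 112 FPKM, the lowest library being Saline-Saline 1. The immediate early gene list was at 4.59 in LPS-Heroin and 5.27 in LPS-Saline (exact permutation p = 0.143), and its bearing on Rgs2 was not tested.

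An LPS history in heroin-injected rats called 1 of 47 members in LPS-Heroin against Saline-Heroin, beside 2.20% of all genes. Rgs5, an RGS gene of pericytes, was at 25.6, 23.2, 17.5 and 23.1 FPKM in Saline-Heroin and 30.4, 33.9, 22.4 and 31.8 in LPS-Heroin. The groups overlapped at LPS-Heroin 3. Rgs5 rose by 0.40 on the log2 scale (SE 0.15, limma adjusted p = 1.00), and lost its call without Saline-Heroin 3, LPS-Heroin 1, LPS-Heroin 2 or LPS-Heroin 4. The mural cell list was at 1.59 in LPS-Heroin and 1.98 in Saline-Heroin with overlap (exact permutation p = 0.143), and its part in Rgs5 was not tested.

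Interaction of LPS and heroin, fitted over 16 libraries, called 0 of 47 members with limma-trend and 0 with limma-voom, beside 2.31% of all genes. At an unadjusted p of at most 0.05 were 2 members, Gnb2 (0.18 on the log2 scale) and Gnai2 (0.19), beside 4.02% of all genes. Their limma adjusted p was 0.992.

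Main effects over the injection libraries were computed after the data had been seen. The heroin effect averaged over LPS history called 1 of 47 members, the less abundant Gnas entry (-0.91, SE 0.37, limma adjusted p = 0.586), beside 2.46% of all genes. This call was lost in 5 of 16 fits that left out a library, those without LPS-Saline 2 or 3, Saline-Heroin 1 or 3 or LPS-Heroin 2. Rgs2 had a log2 fold change of -0.33 (SE 0.11, adjusted p = 0.547) in the same fit. The LPS effect averaged over heroin called Gna14 alone (0.70, SE 0.20, limma adjusted p = 0.708), beside 1.77% of all genes. In this fit too the Saline-Saline mean of Gna14 lay under the 0.5 FPKM minimum. Both averaged effects share their libraries with the comparisons above.

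Self-administered heroin was compared with self-administered saline. In Heroin-SA against Saline-SA, 3 of 48 members were called (6.25%), beside 5.45% of all genes. Rgs4 rose, and Rgs1 and the short Gng5 entry (ENSRNOG00000038205) fell. The additional member tested was Gnat1. Members had a median log2 fold change of 0.03, beside 0.01 for all genes.

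Rgs4 was at 60.4, 62.6, 55.8 and 49.3 FPKM in Saline-SA and 80.6, 62.2, 97.7 and 64.4 in Heroin-SA. The groups met at Heroin-SA 2. The means were 57.0 ± 5.87 and 76.2 ± 16.5 (SD, n = 4, exact permutation p = 0.0571), and the log2 fold change was 0.40 (SE 0.15, limma adjusted p = 0.376). The call was lost with equal medians, in 1 fit of all groups and without Saline-SA 4, Heroin-SA 1 or Heroin-SA 3. The cortical list was at 2.99 in Heroin-SA and 2.69 in Saline-SA with overlap (exact permutation p = 0.486), and the immediate early list at 4.08 and 4.52 without overlap (exact permutation p = 0.0286). Neither was tested for its part in Rgs4.

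Rgs1, an RGS gene of immune cells, was at 0.634, 0.521, 0.961 and 0.632 FPKM in Saline-SA and 0.372, 0.202, 0.436 and 0.243 in Heroin-SA, from 4 to 18 reads per library. No Heroin-SA library reached the Saline-SA range. With means of 0.687 ± 0.190 in Saline-SA and 0.313 ± 0.109 in Heroin-SA (SD, n = 4), Rgs1 met the minimum of 0.5 FPKM over the 8 libraries by a narrow margin and through Saline-SA alone, so it had to differ in order to be tested. Rgs1 fell by 0.94 on the log2 scale (SE 0.39, limma adjusted p = 0.412), but with a pseudocount of 1 the value was -0.36 and not called. Of 8 fits that left out 1 library, 4 still tested Rgs1, and the call was kept without Heroin-SA 3 alone. Gng5 on chromosome 1 is a gene of 207 bases opposite Arhgap35, with 14 to 39 reads per library here, and its log2 fold change of -0.64 (SE 0.28, limma adjusted p = 0.431) kept its call in 1 of 8 fits that left out a library, that without Heroin-SA 3.

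The effect of self-administered heroin less that of injected heroin called 2 of 48 members, beside 4.38% of all genes. Rgs5 had a difference of 0.52 on the log2 scale (SE 0.21, limma adjusted p = 0.730), with values of 43.5, 42.3, 48.1 and 36.5 FPKM in Saline-SA and 52.6, 56.3, 34.7 and 56.1 in Heroin-SA. Heroin-SA 3 lay below every Saline-SA library. The call was kept in 9 of 16 fits that left out a library, and lost without Saline-Saline 2 or 3, Saline-Heroin 3, Saline-SA 4 or Heroin-SA 1, 2 or 4. Rgs1 had a difference of -1.31 (SE 0.61, limma adjusted p = 0.759), and was called in 4 of 16 such fits, those without Saline-Saline 3, Saline-Heroin 4, Saline-SA 2 or Heroin-SA 3.

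Among the comparisons made, the most members were called between the control groups of the experiments. Saline-SA against Saline-Saline called 9 of 47 members (19.1%), beside 22.8% of all genes, and 14 members passed an adjusted p of 0.05, beside 23.7% of all genes. Surgery, housing, light cycle, time of death and experiment differ between these groups and cannot be told apart. Of the 9, 3 were higher and 6 lower, but with library medians set equal 6 were higher and 5 lower, Gng3, Rgs19 and the longer Gng5 entry (ENSRNOG00000015936) being added as higher.

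Called higher were Rgs9, Gng7 and Rgs5. Rgs9 was at 61.4, 75.4, 113 and 54.2 FPKM in Saline-Saline and 128, 137, 166 and 121 in Saline-SA, without overlap, and rose by 0.91 on the log2 scale (SE 0.21, limma adjusted p = 0.0155). Gng7 was at 159, 225, 285 and 174 FPKM against 329, 341, 402 and 251, the groups meeting at Saline-SA 4, and rose by 0.67 (SE 0.20, limma adjusted p = 0.0396). Rgs5 was at 27.5 ± 2.64 FPKM and 42.6 ± 4.80 (SD, n = 4), and rose by 0.63 (SE 0.10, limma adjusted p = 0.0034). The medium spiny neuron list was at 7.07 in Saline-SA and 6.55 in Saline-Saline on the log2 scale with overlap (exact permutation p = 0.143), and its part in Rgs9 and Gng7 was not tested. The endothelium list was higher in Saline-SA as well (3.60 against 3.23, no overlap), and the mural list was at 2.34 against 1.52 with overlap (exact permutation p = 0.0571), and their part in Rgs5 was not tested.

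Called lower were Gnaq, Gnai1, Gng8, Gng2, Rgs17 and the less abundant Gnas entry. Gnaq, the Gq subunit, was at 37.5, 34.6, 35.8 and 34.6 FPKM in Saline-Saline and 13.2, 14.9, 12.8 and 10.9 in Saline-SA. The Saline-SA libraries lay far below the lowest Saline-Saline value. It fell by 1.46 on the log2 scale (SE 0.09, limma adjusted p = 7.5e-05). In Heroin-SA it split, at 14.3 and 12.5 in libraries 1 and 3 and 27.7 and 29.6 in libraries 2 and 4.

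Gnai1, an inhibitory alpha subunit, was at 103, 97.4, 83.3 and 90.5 FPKM in Saline-Saline and 54.4, 56.3, 45.0 and 42.2 in Saline-SA. It fell by 0.92 (SE 0.11, limma adjusted p = 0.00082). Over all libraries it ran from 42.2 to 65.8 in the 8 SA libraries and from 82.5 to 106 in the 16 injection libraries. Rgs9 was the other of 2 members whose ranges in the experiments were separate, at 121 to 166 FPKM in SA and 54.2 to 113 in injection libraries. The Gq class as a whole summed to 44.9 ± 4.30 FPKM in Saline-SA and 74.2 ± 1.34 in Saline-Saline (SD, n = 4), and the G gamma genes to 814 ± 42.6 and 654 ± 69.7.

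Gng8 fell by 0.83 (SE 0.17, limma adjusted p = 0.0089), Gng2 by 0.47 (SE 0.14, adjusted p = 0.0442) and Rgs17 by 0.44 (SE 0.13, adjusted p = 0.0389). Rgs17 was not called with equal medians or without Saline-SA 4. The less abundant Gnas entry was at 6.42, 13.6, 17.0 and 9.66 FPKM in Saline-SA, overlapping the Saline-Saline values given before, and its log2 fold change was -0.92 (SE 0.34, limma adjusted p = 0.0840). It lost its call in 1 fit of all groups and in 5 of 8 fits that left out a library, those without Saline-Saline 1, 2 or 3 or Saline-SA 1 or 4 (-1.18 to -0.66 over the 8). Astrocyte markers were lower in Saline-SA than in Saline-Saline (5.55 against 6.10 on the log2 scale) and microglia markers too (3.90 against 4.12), both without overlap. Their part in the members' differences was not tested. Gng4, named here after its values were seen, was at 69.7 FPKM in Saline-SA 4 and ran from 20.2 in the lowest library.

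**Figure D3:**
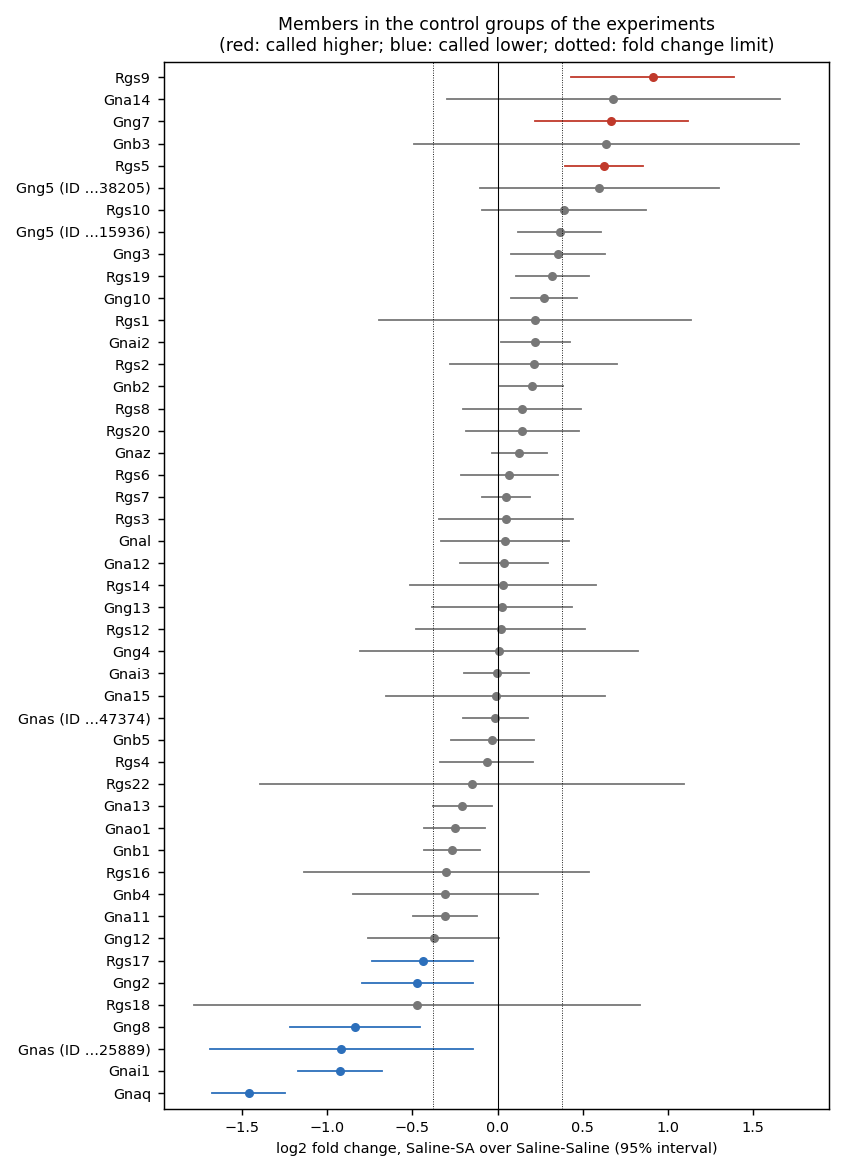
Log2 fold change of each of 47 members in Saline-SA over Saline-Saline with its 95% interval, red where called higher, blue where called lower. Gnaq at -1.46 and Gnai1 at -0.92 lie farthest below 0 with narrow intervals, and Rgs9 at 0.91 lies highest.

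Several members correlated with marker lists across libraries. Named members (27) were set against 3 marker lists over the 16 injection libraries, 81 relations in all, of which 18 had an adjusted permutation p under 0.05. Of these, 7 were with the medium spiny neuron list. The libraries share normalization, and single library values of list and member come from the same RNA. Some named members entered only because they were called in comparisons that use these libraries. The permutation shuffled libraries across the treatment groups. The adjusted p-values and the count of 18 are therefore not those of relations fixed beforehand.

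Rgs9 followed the medium spiny neuron list with r = 0.96 (permutation p = 1e-05, the smallest possible, adjusted p = 0.0004) and rho = 0.86 (adjusted p = 0.0019). Gng7 had r = 0.93 and rho = 0.90, Rgs8 r = 0.86 and rho = 0.84, and Gnal r = 0.84 and rho = 0.83, with adjusted p for r of 0.0004, 0.0011 and 0.0015. Leaving out Saline-Saline 3 and 4, the libraries farthest from the median, left r at 0.94, 0.90, 0.80 and 0.78 for these 4 genes. In the 8 SA libraries r was 0.74, 0.98, 0.91 and 0.93. Rgs10 had r = 0.70 and Gng2 r = -0.63 in the injection libraries.

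**Figure D4:**
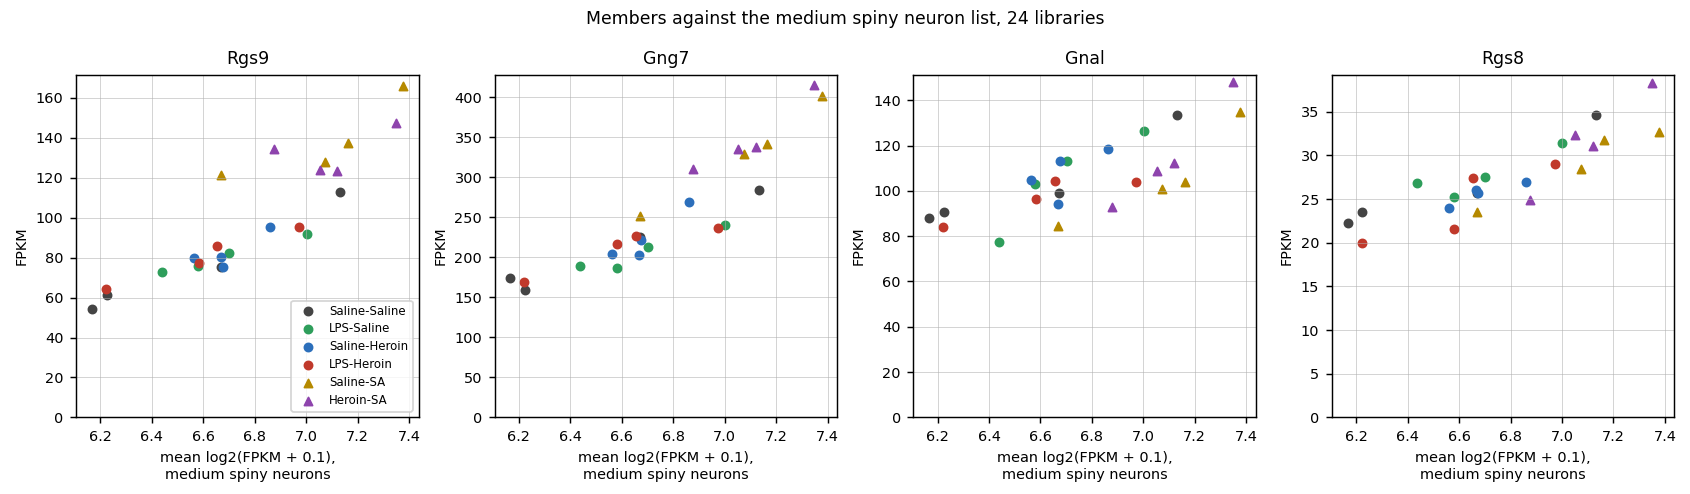
FPKM of Rgs9, Gng7, Gnal and Rgs8 against the mean log2(FPKM + 0.1) of the medium spiny neuron list, circles for injection and triangles for SA libraries. The points climb together, with r from 0.84 to 0.96 over the 16 injection libraries.

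Septal and ventral forebrain markers, highest at 3.35 on the log2 scale in Saline-Saline 1, followed Rgs16 (r = 0.84, rho = 0.84, adjusted p = 0.0013 and 0.0023) and the more abundant Gnas entry (r = 0.85, rho = 0.72, adjusted p = 0.0012 and 0.0227). Rgs14, known from hippocampal neurons, went the other way (r = -0.78, rho = -0.52, adjusted p = 0.0036 and 0.149), and without Saline-Saline 1 and 4 its r was -0.56. Rgs16 was at 10.2 FPKM in Saline-Saline 1 and 4.56 to 5.92 in the others of that group. Gnb1 followed the cortical list (r = 0.79, rho = 0.74) and Rgs7 did as well (r = 0.74, rho = 0.66). In the 8 SA libraries these relations held unevenly. With the septal list r was 0.71 for Rgs16, 0.43 for the more abundant Gnas entry, -0.90 for Rgs14 and -0.11 for Gng13. With the cortical list it was 0.58 for Gnb1, 0.19 for Rgs7 and 0.40 for Rgs4. It was 0.91 for Gna14, 0.79 for Gng13 and -0.25 for the less abundant Gnas entry.

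**Figure D5:**
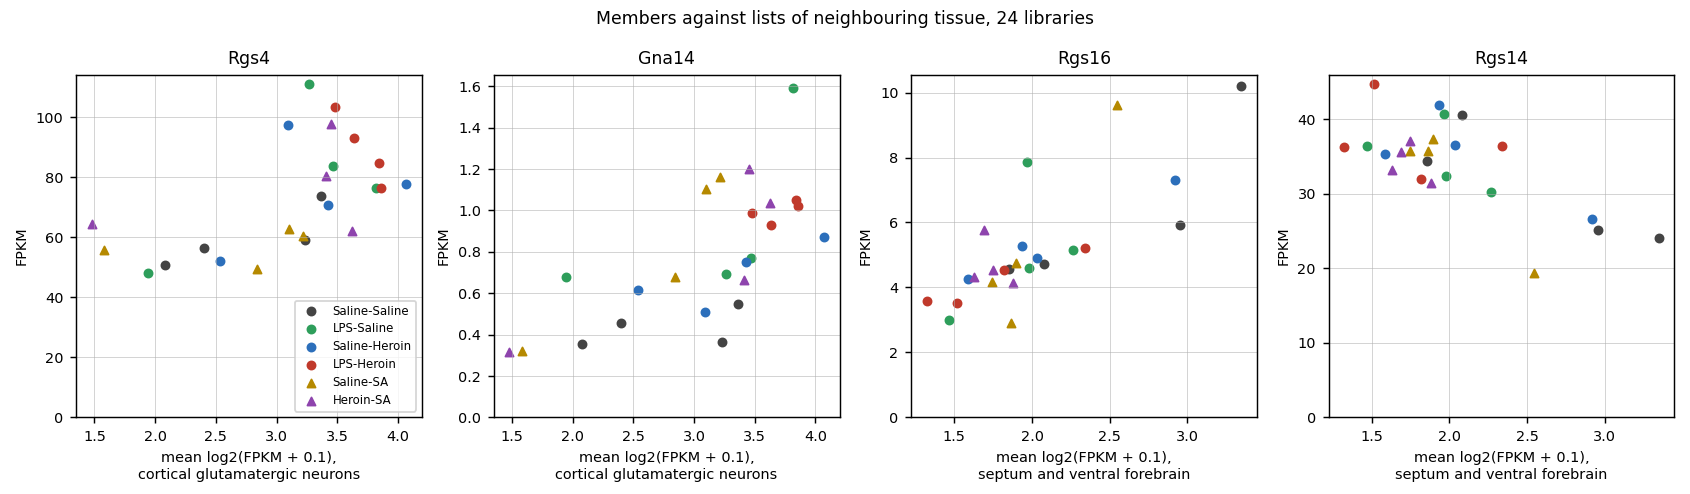
FPKM of Rgs4 and Gna14 against the cortical glutamatergic list and of Rgs16 and Rgs14 against the septal list (mean log2 values), circles for injection and triangles for SA libraries. LPS-Heroin libraries sit at 3.48 to 3.86 on the cortical list, and Saline-Saline 1 is alone at 3.35 on the septal list.

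Other genes of G protein signaling were taken from a list of 42, of which 41 were in the table. In LPS-Heroin against Saline-Saline, 4 of 37 tested were called higher and 2 lower, beside 2.99% and 2.44% of all genes. The cortical list was higher in the same libraries, as given above, and its part in these calls was not tested. The 4 were Adcy1, an adenylyl cyclase (1.01 on the log2 scale, SE 0.26, limma adjusted p = 0.224), and the potassium channel subunits Kcnj9 (0.50), Kcnj3 (0.83) and Kcnj6 (0.85), which G beta-gamma opens. Adcy7 (-0.88), of the same family as Adcy1, and Kcnj5 (-0.58), of the same family as the other Kcnj genes, were called lower. Kcnj5 was also the 1 listed gene of 37 called in Saline-Heroin against Saline-Saline, again lower, beside 3.07% of all genes. Adcy1 was called higher in LPS-Saline (0.59) and in Heroin-SA (1.05) as well, each against its control, the comparisons with Saline-Saline sharing those libraries.

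Called lower in Saline-SA against Saline-Saline were 13 of 38 listed genes and higher 1, beside 14.3% and 8.47% of all genes. With equal medians those over all genes were 1850 higher and 1803 lower, against 1283 and 2165. Gpr158 (-1.04, SE 0.12, limma adjusted p = 0.00064) and Rgs7bp (-0.71, SE 0.20, adjusted p = 0.0306) encode membrane anchors of the R7 RGS proteins. Plcb1, a phospholipase C that Gq activates, had a value of -0.56 (SE 0.10, adjusted p = 0.0047), and Plcb4 was called lower as well. The median log2 fold change of the list was -0.27, beside 0.01 for all genes. The list's own count and median were not computed with equal medians. The interaction term was negative and called for 2 of 37 listed genes, Rgs7bp (-0.50) and Gpr158 (-0.47), beside 2.31% of all genes. Their limma adjusted p was 0.992. A negative term does not mean a lower level with both agents. Rgs7bp averaged 42.1 ± 5.76 FPKM in Saline-Saline and 48.1 ± 11.9 in LPS-Heroin (SD, n = 4). It was at 53.7 ± 3.43 with LPS alone and 52.4 ± 7.32 with heroin alone. For Gpr158 these means were 18.5 ± 1.72 and 21.1 ± 4.21, then 23.8 ± 1.76 and 22.6 ± 3.12. Saline-Saline had the lowest mean of these groups for both genes.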

How the data were processed

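RNA of the NAc was sequenced in 24 libraries, 6 groups of 4, grouped by the labels. Per the submitters' processing notes, reads were trimmed with fastp, aligned with HISAT2 to rn6 and counted with featureCounts, and the authors deposited the counts as FPKM. Tool versions, annotation release and strand setting are not given in the sources used here. All values (100%) corresponded to whole reads within a tolerance of 0.1. Precision follows these reads.

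Log2(FPKM + 0.1) was fitted with limma-trend (limma 3.58.1, R 4.3.3) for the genes averaging 0.5 FPKM or more, with Benjamini-Hochberg adjustment over all genes tested and only the compared groups in a fit. The limits, p of at most 0.05 and 1.30-fold, are those of the study's pattern and overlap analyses. For its lists of differentially expressed genes the study used a limit on the adjusted p. Fold changes understate low genes. Single members were compared by exact permutation of 8 libraries, and correlations by 100000 permutations (Python 3.11.15, scipy 1.17.1). P-values measure the spread between these rats. The members and lists were chosen with earlier results of these data known. Named members were a fixed set, the highest of each class and every member called. Gnai2, Gnb2 and Gng4, among others given values, were outside this rule. Alternatives were the pseudocount, filter, scaling, limma-voom on recovered reads, a replicate block, 1 fit of all groups and leaving out libraries. The fit was tested, once results existed, on simulated reads in which known genes were changed. These reads had 1 fixed spread for all genes and no differences in tissue between libraries. For LPS-Heroin against Saline-Saline, 15131 genes were tested, 96 changed by 0.5 and 96 by 1 on the log2 scale. Of these, 65.6% and 97.9% were called in the right direction, beside 2.32% of unchanged genes. For the interaction the shares were 55.6%, 91.9% and 4.64%, whereas 2.31% of all genes were called in the real data. The simulated shares give no rate of missed or false calls in the real data. Promoters came from RefSeq (GRCr8), whose coordinates were not mixed with rn6.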

Additional observations from a re-analysis of the deposited data

Results flagged for a closer look

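In the 162 groups of 4 examined over the named members, 7 held a library far from the other 3, where chance flags about 1 in 20 groups (8.1 expected). Saline-Heroin 2 stood high in both Gnas entries, at 155 FPKM in the more abundant (others 124 to 126) and 28.8 in the less abundant (7.15 to 9.86). LPS-Heroin 3 was low in Gnai1 at 82.5 FPKM (others 99.2 to 101), and LPS-Heroin 4 was high in Rgs7 at 32.7 (28.4 to 29.2). Saline-SA 4 was low in Rgs14 at 19.4 FPKM (35.8 to 37.3), Heroin-SA 4 high in Gna12 at 123 (102 to 105) and LPS-Saline 2 high in Gna14 at 1.59 (0.679 to 0.770).

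The effect of self-administered heroin differed from that of injected heroin, at an unadjusted p of at most 0.05 and at least 1.30-fold, for Rgs5 (0.52 on the log2 scale, limma adjusted p = 0.730) and Rgs1 (-1.31, limma adjusted p = 0.759). Rgs7 met the limit on p but not that on the fold (-0.26, limma adjusted p = 0.759).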

How the results depend on the processing

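No log2 fold change of a called member changed direction under the alternatives run. Medians over all genes, close to 0 throughout, did turn, in LPS-Saline against Saline-Saline with equal medians and limma-voom (-0.01 and -0.02), in LPS-Heroin against Saline-Saline with no filter and limma-voom (-0.0030 and -0.03), in Heroin-SA with no filter and equal medians (-0.00095 and -0.01) and in Saline-SA against Saline-Saline with no filter and limma-voom (-0.0010 and -0.06). Limma-voom also turned the members' median in LPS-Heroin against Saline-Saline (-0.01). Of the counts of called members under alternatives other than leaving out a library, 52 stayed within 1.5 times the reported count and 10 moved further. The averaged effects were added after seeing the data. With a replicate block, 0 members were called in LPS-Saline against Saline-Saline and 2 in LPS-Heroin against LPS-Saline, while Saline-SA against Saline-Saline gave 11 and Heroin-SA lost Rgs1. Same-numbered libraries correlated from -0.15 to 0.15 in their deviations from the group means, and at most 1 of 4 pairs in a comparison passed 0.1, so the numbers were not taken as pairs. As a hint from the data, 6 of 8 libraries correlated best with their own number in LPS-Saline against Saline-Saline, 5 in Saline-SA and 4 in LPS-Heroin against the same group, and 0 to 3 elsewhere. Limma-voom called 2 in Saline-Heroin against Saline-Saline, 0 in LPS-Heroin against LPS-Saline and 3 in LPS-Heroin against Saline-Heroin. One fit of all groups called 0 in Saline-Heroin against Saline-Saline and 0 in LPS-Heroin against LPS-Saline. A pseudocount of 1 gave 1 in Heroin-SA against Saline-SA, 1 in the difference of self-administered and injected effects and 0 in the LPS effect averaged over heroin. The cause of these moves was not tested. Leaving out 1 library gave 0 to 2 called members in LPS-Saline, 0 to 3 in Saline-Heroin and 3 to 6 in LPS-Heroin, each against Saline-Saline, 0 to 4 in LPS-Heroin against LPS-Saline, 0 to 3 against Saline-Heroin, 0 to 4 in Heroin-SA, 0 to 1 in the interaction, 0 to 4 in the difference of the heroin effects, 9 to 11 in Saline-SA against Saline-Saline, 0 to 2 in the averaged heroin effect and 1 to 3 in the averaged LPS effect. Depth limits Gna14, with at most 63 reads per library, and Rgs1, with at most 37.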
